A study of Oryza sativa with 3 samples.

Results

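Nucleosomes are particles of DNA wrapped around histones, joined in arrays by short stretches of linker DNA. Where 2 neighbouring nucleosomes lie much further apart than a linker, the DNA between them is left as a gap. The gaps described here had a nucleosome with many reads on one side and a nucleosome with few reads on the other. They numbered 7077 of the 67175 gaps over 270 and under 422 bp in the rice genome (10.5%).

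The maps came from seedling leaf of the rice (Oryza sativa) cultivar Nipponbare, grown without any treatment. Nuclei were digested with micrococcal nuclease (MNase), an enzyme that cuts linker DNA faster than DNA held on histones, and DNA of the length of 1 nucleosome was cut from a gel and sequenced (MNase-seq). Biological replicate 1 gave single-end reads from 2 technical replicates that were deposited as 1 pool, and biological replicate 2 gave nucleosome calls made from read pairs. Whole seedling leaf holds many cell types, so every value below is a sum over cells, and a nucleosome present in fewer cells and one placed less exactly cannot be told apart.

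The single-end pool held 26516807 uniquely placed reads, 71.3 per kb, of which 14.5% repeated the start and strand of an earlier read. The paired-end list held 3456855 calls, each 120 bp long. Each carried a score of the calling program, whose scale is not given in the sources used here and whose median was 0.469. The calls carry no read counts of their own. With 1 biological replicate in each form there is no replicate error. Errors below are SDs over the 12 chromosomes, which are parts of the same libraries and not replicates, and no test was made, of single results or of differences between sets of gaps.

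A read was placed at the centre of the nucleosome it came from, 73 bp inside its 5′ end. The occupancy of a call is the number of such centres within 20 bp of the centre of the call. A random position would hold 2.92, and the mean over all calls was 4.23. A gap lies between calls that follow each other along the chromosome with their centres over 270 and under 422 bp apart. The gaps were selected on an occupancy of 8 or more at one flanking call, here the strong call, and of 1 to 3 at the other, the weak call. Among all calls, 17.6% held 8 or more centres and 33.5% held 1 to 3. The difference in single-end reads between the flanking calls is therefore fixed by the choice. The scores, which come from the other library, and the reads and calls beyond the flanking calls were not used to choose. The reads inside the gap were not used either, but the choice requires that no paired-end call lies there.

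As background, chromatin next to a fixed boundary is known from yeast and animals to carry an ordered array, in which each nucleosome lies about 1 repeat length from the one before and the order fades with distance. A gap with unlike flanks allows the array beyond a strong nucleosome and the array beyond a weak one to be compared at the same place in the genome. Each gap was therefore turned so that its strong call lay on the same side.

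The strong calls held 10 centres at the median, from 8 to 64, and the weak calls held 2, from 1 to 3. Gap widths had a median of 330 bp and an interquartile range of 302 to 364 bp. The strong call lay at the lower coordinate in 3572 gaps (50.5%) and at the higher coordinate in 3505. At the limits of the choice, 1747 gaps held exactly 8 centres at the strong call, with a median score there of 0.596, and another 2230 gaps with 7 centres at that call fell just outside, with 0.567. Likewise 2200 gaps held 3 centres at the weak call, with a median score there of 0.439, and 1737 gaps with 4 were left out, with 0.473. The limits thus cut through a continuous range. There were 63 gaps of the smallest width and 67 otherwise alike pairs 1 bp narrower, at 270 bp, and 20 gaps of the greatest width against 18 pairs 1 bp wider, at 422 bp.

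Gaps with unlike flanks occurred on all 12 chromosomes, at 19.02 per Mb. They made up between 9.43% of the gaps on chromosome 12 and 11.2% on chromosome 9. Of 366 windows of 1 Mb, the median held 19 of them. The window with the most, 35, was chromosome 10 from 17000001 to 18000000, followed by chromosome 9 from 20000001 to 21000000 with 34. Chromosome 1 from 17000001 to 18000000 and chromosome 4 from 9000001 to 10000000 held 3 each. These windows were picked for their counts. Both of these poor windows also held fewer gaps of any kind, 95 and 109 against 215 and 240 in the richest ones, and fewer read centres, 56192 and 49114 against 77104 and 81779. The part of read coverage in these counts was not tested. Coordinates here and below are those of TIGR release 5.

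Neighbouring gaps of this kind were mostly far apart, at a median of 32.7 kb. In 498 cases the next one lay within 2 kb. Of these pairs, 187 pointed the same way, 160 had their strong sides toward each other and 151 had them away from each other. In 68 cases the same strong call, and in 46 cases the same weak call, bordered a gap on either side, so a small number of calls was counted for both.

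The most unequal gap on each chromosome gives a view of single places. On chromosome 12, the call centred at 16088037 held 64 read centres and the call at 16088400 held 1. Of the 64, 23 were left when repeated reads were counted once. The paired-end scores of these calls were 0.829 and 0.398. Beyond the strong call, the next nucleosomes were called 172, 155 and 153 bp apart, with 4, 12 and 3 centres. Beyond the weak call, the steps were 345, 263 and 131 bp, with 0, 3 and 5 centres. The steps were thus more even on the strong side of this gap. The most unequal gap of chromosome 6 went the other way. Its steps were 171, 523 and 201 bp beyond the strong call and 147, 150 and 158 bp beyond the weak call.

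On chromosome 3, the call at 3160393 held 52 centres (23 with repeated reads counted once) and the call at 3160119 held 1, with scores of 0.779 and 0.386. The next call beyond the strong one held 6 centres and that beyond the weak one held 7, so the flanking calls differed and the calls after them were nearly alike. On chromosome 1, the call at 32360870 held 44 centres (18 with repeated reads counted once) and that at 32361175 held 1, with scores of 0.791 and 0.353. The calls beyond held 11 and 7 centres. Over the 12 chromosomes, the strong call of the most unequal gap held between 29 and 64 centres and its score ran from 0.730 to 0.836, above the weak call's 0.219 to 0.482 without overlap.

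The 3 gaps nearest to the medians show how few reads a typical case rests on. On chromosome 7, the call at 18697974 held 10 centres and the call at 18698303 held 2, with scores of 0.537 and 0.302. A second gap on chromosome 7, from 9153822 to 9154147, had 10 and 2 centres and scores of 0.556 and 0.305. A gap on chromosome 6, from 17066817 to 17067143, had its strong call at the higher coordinate, with 10 centres and a score of 0.672, against 2 centres and a score of 0.445. Single gaps at this depth cannot be read alone, and the results that follow are sums over all of them.

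The paired-end library set the positions of the calls and so the gaps, but its scores were not used for the choice. These scores also told the sides apart. The median score was 0.681 at the strong calls and 0.409 at the weak calls, and the median difference within a gap was 0.242 ± 0.059 (SD, n = 12 chromosomes). The score was higher at the strong call in 6385 of the 7077 gaps (90.2%). Among all 55383 gaps with any inequality of occupancy, it was higher at the call with more reads in 71.3%, so agreement of the libraries was more frequent where the reads differed more. The scores at the strong calls were close to those of gaps with 8 or more centres at both calls, which had medians of 0.695 at both the lower and the higher coordinate. Those at the weak calls were close to those of gaps with 1 to 3 centres at both calls, 0.411 and 0.407. By this measure each flank looked like its own class and not like a mean of both. The agreement of the libraries was not particular to gaps. In 43170 ordinary pairs, neighbouring calls chosen by the same occupancies with no gap between them, the score was higher at the strong call in 88.6%. The median difference within these pairs was 0.203 ± 0.045, against 0.242 ± 0.059 in the gaps.

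The score scale differed between chromosomes. On chromosome 9 the central 90% of all calls ran from 0.348 to 0.586, against 0.247 to 0.728 on chromosome 1. The median difference within gaps was smallest on chromosome 9, at 0.089, and largest on chromosome 3, at 0.282. Expressed as a percentile among the calls of the same chromosome, the strong calls had a median of 88.6 and the weak calls one of 35.3. The median difference was then 45.6 percentile points, with chromosome 9 still lowest, at 31.5. The share of gaps with the higher score at the strong call was 81.7% on chromosome 9 and between 89.5% and 92.5% on the others. The cause of the narrow scale was not tested.

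Repeated reads made up 25.8% of the centres at the strong calls, against 14.5% of all reads. The choice counted repeats, which by itself favours calls that hold them, and calls chosen by the same occupancy elsewhere had like shares, 25.7% at the strong calls of ordinary pairs 150 to 220 bp apart, 27.1% in gaps with 2 strong calls and 24.7% over all 608162 calls with 8 or more centres. Counted once, the mean occupancy of the strong calls was 8.42 in place of 11.3. The count stayed at 8 or more in 4219 gaps (59.6%) and fell below it in 2858. Over all 608162 calls with 8 or more centres it stayed there in 62.0%, so this share was not particular to the gaps. Repeats can be copies made by PCR or separate molecules cut at the same base, and the data do not tell these apart.

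The centres at the strong call came about equally from its 2 edges, a mean of 5.65 reads from the edge toward the gap and 5.69 from the edge toward the array. These are the reads that the choice counted, and their distance of about 73 bp from the call centre follows from it, so the values are given as a description. In the 43170 ordinary pairs, chosen by the same occupancies, the strong call held 5.82 and 5.69 reads.

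The main contrast lay beyond the flanking calls. Outward of the strong call, read centres formed a row of maxima at 172, 363, 551 and 768 bp. Their levels were 118.0, 92.0, 84.2 and 82.7 centres per kb, and the minima before them held 62.6, 59.4, 66.3 and 72.4. The first maximum was thus 1.89 times the minimum before it, the second 1.55 times, the third 1.27 times and the fourth 1.14 times. Outward of the weak call, maxima lay at 167, 361, 516 and 716 bp, with 80.5, 75.3, 76.8 and 75.01 centres per kb. These were 1.36, 1.18, 1.14 and 1.07 times the minima before them. Each maximum was the highest level 130 to 240 bp beyond the one before, and each minimum the lowest level ahead of it. Ratios above 1 therefore follow from the search. On the weak side the third level was above the second, so the later maxima there do not by themselves show an array. The ratios were smaller on the weak side from the first nucleosome on.

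**Figure D1:**
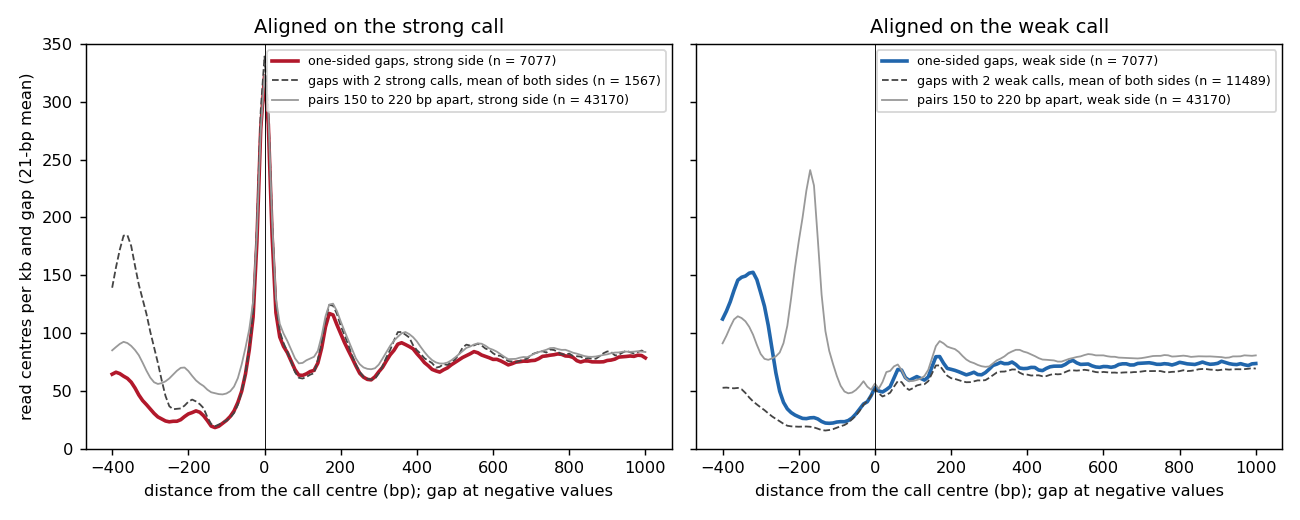
Read centres per kb by distance from the flanking call, aligned on the strong call (left) and on the weak call (right), smoothed over 21 bp, with the gap at negative distances. The curve beyond the strong call (red) has maxima at 172 and 363 bp like those of gaps with 2 strong calls (dashed) and of ordinary pairs (grey), and the curve beyond the weak call (blue) stays flatter, near that of gaps with 2 weak calls; the tall peaks at 0 on the left follow from the choice of the calls.

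For one number per side, the swing of the first nucleosome was taken as its maximum minus the mean of the minima on either side of it, in percent of the mean level at 120 to 1000 bp. It was 72.4% ± 5.67 on the strong side and 26.8% ± 5.12 on the weak side (SD over 12 chromosomes). The chromosomes ranged from 62.9% to 81.9% on the strong side and from 24.3% to 42.0% on the weak side, and these ranges did not overlap. Most single chromosomes lay above the value for the whole genome, and the place of the first maximum on the strong side differed between them, from 168 to 186 bp.

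The array amplitude was that of the best cosine with a period of 150 to 220 bp over the same distances, also in percent of the mean level. It was 13.0% ± 1.80 on the strong side, with a period of 192 bp, and 3.71% ± 1.30 on the weak side, with a period of 174 bp. The strong side was above the weak side on 12 of 12 chromosomes, by 5.63 to 11.7 points. The same fit made 5 kb further out, used here as a floor, gave 0.740% and 0.780% over the genome and up to 4.84% on a single chromosome. The strong side stood clear of this floor on every chromosome, the lowest value being 10.5%. The weak side was above its own floor on 11 of 12 chromosomes, the exception being chromosome 9, with 3.15% against 4.60%. The period on the weak side rests on this small amplitude and is less certain than that on the strong side.

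**Figure D2:**
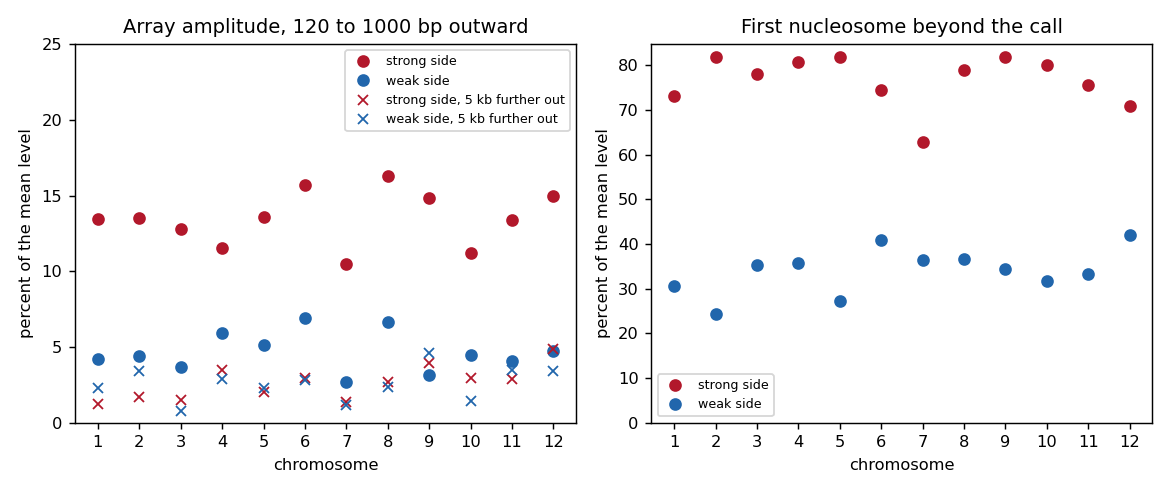
Array amplitude (left) and swing of the first nucleosome (right), in percent of the mean level, for each of the 12 chromosomes, with the amplitude 5 kb further out as crosses. On every chromosome the strong side (red) lies above the weak side (blue), and the weak side comes close to or below its crosses on chromosome 9.

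Over all widths, each side was close in amplitude to the same kind of call in the other sets of gaps. The sets differed in median width, 330 bp here, 352 bp with 2 strong calls and 325 bp with 2 weak calls. Within classes of width the closeness did not hold throughout, as the values by width below show. In the 1567 gaps with 2 strong calls the amplitude was 15.9% ± 3.55 on the lower and 14.5% ± 3.30 on the higher side, and the strong side of the unequal gaps, at 13.0%, lay within 1 SD of both. In the 11489 gaps with 2 weak calls it was 3.55% ± 1.36 and 3.27% ± 0.732, beside 3.71% for the weak side. In ordinary pairs, with no gap between the calls, it was 13.2% ± 0.959 beyond the strong call and 5.18% ± 0.834 beyond the weak one. A difference between strong and weak sides was therefore also found without a gap. Over all widths the weak side of the gaps had a lower amplitude than a weak call without one, by more than 1 SD. This did not hold by width, since the weak-side amplitude of single width classes ran from 2.82% to 10.6% and in most of them lay above 5.18%. The first nucleosome had a swing of 64.7% ± 3.64 and 36.2% ± 3.32 on the sides of ordinary pairs, against 72.4% and 26.8% beside the gaps. It was 84.0% and 79.4% in gaps with 2 strong calls and 28.4% and 30.3% in gaps with 2 weak calls.

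The reads on the weak side were also aligned on the strong call across the gap. Over all widths the amplitude was then 4.53% against 3.71% on the weak call. Within classes of about 30 bp of width both alignments gave nearly the same, for example 6.34% and 6.32% in gaps of up to 300 bp, and 10.7% and 10.6% in gaps over 390 bp. Across the gap the distance also varies with its width, and whether the exactness of the weak calls bears on the difference between the sides was not tested.

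Amplitude was highest where the strong call held the most reads. It was 12.02% beyond strong calls with 8 centres, 11.2% with 9 or 10, 13.0% with 11 to 13, 15.5% with 14 to 19 and 21.1% in the 353 gaps with 20 to 64. The swing of the first nucleosome rose with each of these classes, from 61.8% to 118%. On the weak side of the same gaps the amplitude was 3.25%, 3.86%, 4.22%, 3.40% and 6.73%, with values of 1.81% to 3.88% found 5 kb further out. The class with the most reads had the most order on both sides, and the weak side showed no steady course below it.

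**Figure D3:**
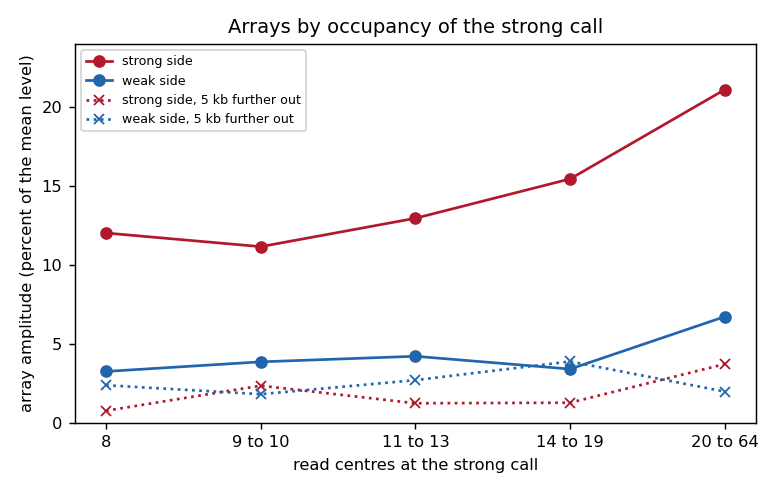
Array amplitude in percent of the mean level by the number of read centres at the strong call, for the strong side (red), the weak side (blue) and the same fits 5 kb further out (dotted). The strong side goes from 12.02% at 8 centres to 21.1% at 20 to 64, while the weak side lies between 3.25% and 6.73%, close to its dotted line for the 14 to 19 class.

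The sides were also compared by the number of reads at the weak call. With 1, 2 and 3 centres there, the weak-side amplitude was 3.95%, 5.48% and 5.26%, and the swing of the first nucleosome was 22.0%, 28.1% and 38.3%. On the strong side of the same gaps the swing went the other way, 83.1%, 71.7% and 65.0%. Both sides also differed by gap width. From the narrowest to the widest of 5 classes, the weak-side amplitude was 6.32%, 2.82%, 6.03%, 6.35% and 10.6%, with no steady course, and its first swing was 25.3% in gaps of up to 300 bp and 55.0% in gaps over 390 bp. The strong-side amplitude was 12.7% and 12.5% in these end classes, and its first swing was 65.8% and 84.4%. In gaps with 2 strong calls the amplitude was 6.56% and 11.9% in the narrowest class and 21.3% and 15.7% in the widest. In gaps with 2 weak calls it was 2.33% and 1.76% against 6.44% and 6.15%.

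In 692 gaps (9.78%) the paired-end score was not higher at the strong call, so that the libraries disagreed on which side was the stronger. There the sides had similar values. The amplitude was 8.44% on the strong and 7.64% on the weak side, a difference of 0.801 points. The SD of this difference over chromosomes was 1.58 in the full set of gaps and was not taken for these 692 alone. The first nucleosome had swings of 53.1% and 55.1%. In the 6385 gaps where the libraries agreed, the amplitudes were 13.5% and 3.65% and the swings 74.8% and 24.6%. This division was made after the values were seen. The smaller group carries more noise, with 4.50% and 2.42% found 5 kb further out.

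The deposited calls beyond the gap gave a second view, and they come from the library that did not set the strength. The first call that does not overlap the flanking call had a median score of 0.504 on the strong side and 0.462 on the weak side. It lay 150 to 220 bp away in 63.2% of gaps on the strong side and in 50.8% on the weak side. In gaps with 2 strong calls these shares were 62.4% and 62.5%, in gaps with 2 weak calls 51.4% and 51.2%, and in ordinary pairs 64.9% beyond the strong and 59.0% beyond the weak call. For the second to sixth calls beside the unequal gaps, the shares were 58.6% to 60.3% on the strong and 57.0% to 59.2% on the weak side. The first call thus departed from the later ones more on the weak side, where its share was lower. A run of 3 steps of 150 to 220 bp followed the strong call in 1710 gaps (24.2% ± 1.40) and the weak call in 1271 (18.0% ± 1.46), and the chromosomes did not overlap, from 22.0% to 26.1% and from 15.1% to 19.3%. In ordinary pairs such runs followed 25.8% of the strong and 21.6% of the weak calls, so a weak call without a gap was followed by regular steps more often than a weak call beside one.

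By single-end reads the next call held 5.62 centres on the strong side and 4.52 on the weak side, a mean difference of 1.10 ± 0.401 that was above 0 on 12 of 12 chromosomes. Both were above the mean of 4.23 over all calls, but so were the second to sixth calls on either side. On the weak side the next call held the fewest centres of these. The second call held 5.07 and 4.77 centres, the third 5.01 and 4.69, and the sixth 4.84 and 4.86. The difference was 0.295 at the second call, 0.312 at the third, 0.061 at the fourth, 0.178 at the fifth and -0.028 at the sixth, where it was above 0 on 5 of 12 chromosomes. The inequality of the flanks thus carried over mostly to the first nucleosome beyond them. This was not particular to gaps. In ordinary pairs the next call held 5.82 centres beyond the strong and 4.80 beyond the weak call, and the second held 5.29 and 4.95.

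**Figure D4:**
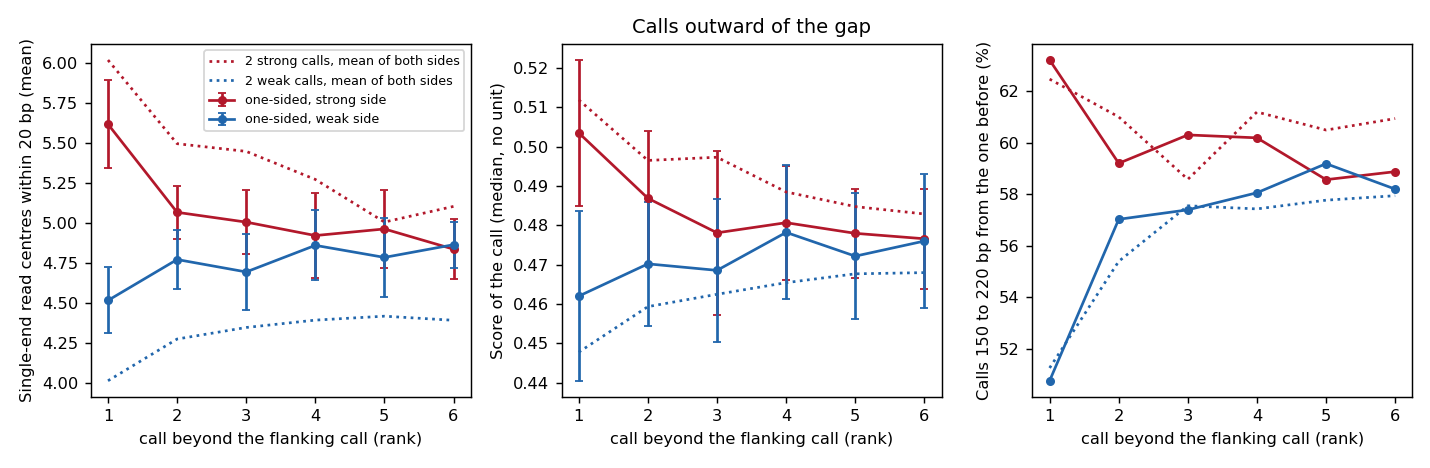
Mean read centres within 20 bp (left), median score (middle) and share of calls 150 to 220 bp from the call before (right), for the 6 calls outward of the flanking call. Error bars are SDs over the 12 chromosomes, dotted lines are gaps with 2 strong or 2 weak calls, and the vertical axes do not start at 0; the strong side (red) starts at 5.62 centres against 4.52 on the weak side (blue) and the sides meet by the sixth call.

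Gap by gap the carry-over was slight. The next call had more reads on the strong side in 3746 gaps (52.9%), on the weak side in 2703 and as many in 628. Over all gaps with unequal flanks, the side with more reads had the richer next call in 48.4%. Ties count in this total, and how often the other side had the richer next call is not given here. The next call had the higher score on the strong side in 3935 gaps (55.6%), against 52.6% over all unequal gaps. A mean difference of about 1 read centre is small beside the scatter of single calls.

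Reads were also somewhat denser on the strong side. Between 120 and 1000 bp outward there were 78.8 centres per kb on the strong and 71.7 on the weak side. Between 3 and 5 kb the levels were 79.0 and 78.3, and the difference was not found this far out. Where the sides held like numbers of reads between 300 and 1000 bp, within 1.5 times of each other, the amplitudes were 12.8% and 4.11%, nearly the same as in all gaps. Another gap lay within 1 kb on the strong side in 38.5% and on the weak side in 44.1% of cases. These shares were 38.5% and 37.8% around gaps with 2 strong calls and 44.6% and 45.3% around gaps with 2 weak calls. Around ordinary pairs they were lower on both sides, 32.1% beyond the strong and 34.6% beyond the weak call.

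The gaps, which hold no paired-end call by choice, were not empty of single-end reads. From 80 bp inside one flanking centre to 80 bp inside the other there were 24.4 ± 1.07 centres per kb, against 71.3 over the genome. This lay between the 27.7 ± 3.09 of gaps with 2 strong calls and the 17.7 ± 0.645 of gaps with 2 weak calls. In 947 gaps (13.4%) no centre fell inside, which at the small number of reads in 1 gap does not show that the DNA was bare. The share was 10.3% in gaps with 2 strong calls and 21.3% in gaps with 2 weak calls. Among the unequal gaps it was 17.8% at widths up to 300 bp and 7.99% over 390 bp, where more bases are counted.

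The reads inside the gap had an order of their own. In the 3496 gaps over 330 bp, the level fell to 16.4 centres per kb 128 bp inward of the strong call, rose to 35.2 at 180 bp and fell to 17.0 at 259 bp. The mean at 150 to 210 bp, 30.7 ± 2.75, was above that at 100 to 140 bp, 18.3 ± 1.66, on 12 of 12 chromosomes. Reads whose 5′ end lay near the strong call and reads whose 5′ end lay away from it contributed alike to this maximum, 15.7 and 15.3 centres per kb. Aligned on the weak call, the same gaps had a maximum of 29.2 at 169 bp after a minimum of 16.8, with means of 27.8 ± 1.83 and 17.6 ± 1.40 at these distances, also above on 12 of 12 chromosomes. A like maximum in gaps with 2 weak calls was lower, 19.4 and 20.0, and in gaps with 2 strong calls it was higher, 48.0 and 46.7.

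The distance of the maximum from the strong call changed little with gap width. It was 165 bp in gaps over 300 and up to 330 bp, 180 bp in those up to 360 and in those up to 390 bp, and 179 bp in those over 390 bp. Measured from the weak call, the maximum moved outward with width, from 151 to 164 and 197 bp in the first 3 of these classes, and in the widest gaps the level was still rising at 210 bp, where the search ended. In gaps with 2 strong calls it also moved, from 157 bp to 197 bp from the call at the lower coordinate and from 159 to 196 bp from the call at the higher coordinate. In the narrowest gaps, of up to 300 bp, no separate maximum was found. The distance inside the gap was near the 172 bp of the first nucleosome on the outer face of the strong call, at a level of 35.2 against 118.0 centres per kb.

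**Figure D5:**
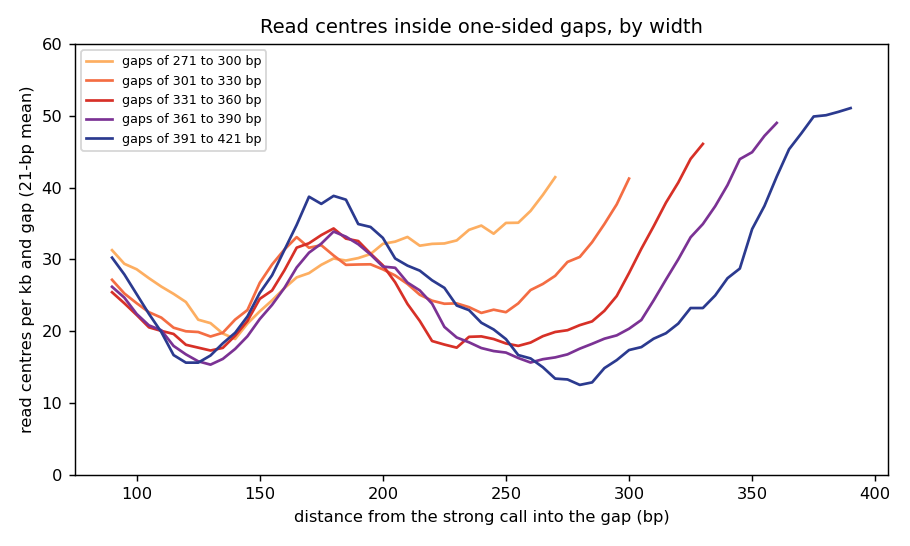
Read centres per kb by distance from the strong call into the gap, for 5 classes of gap width, smoothed over 21 bp and drawn from 90 bp to the lower limit of each class. In the 4 classes over 300 bp a maximum lies at 165 to 180 bp, while the rise at the right end, toward the weak call, moves outward with width.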

How the data were processed

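The members and comparison sets were chosen with earlier results of these data known. Single-end reads of 36 bp were aligned by the authors with MAQ to TIGR release 5, with 1 mismatch allowed and unique positions kept. The 2 technical replicates were pooled by them. A filter on repeated reads is not given in the sources used here. Nucleosomes were called by the authors with nucleR from read pairs, after fragments over 200 bp were removed and the rest trimmed to the middle 40 bp. The score deposited with each call is that of nucleR, with no threshold or scale given. A second list of calls was identical and was not used.

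Positions were counted with Python 3.11.15, numpy 2.4.6 and pandas 2.3.3, and plotted with matplotlib 3.10.9. The position of single-end centres assumes a fixed protected length, and the gel cut removes DNA of other lengths, so short particles inside a gap would be missed. Gaps were of 271 to 421 bp between the centres of adjacent calls. The rule and the fits were checked on simulated gaps. The regions named are the gap with the greatest difference of occupancy on each chromosome, 3 of them in full, and the 3 gaps nearest to the medians of width, both occupancies and score difference. Alternatives were repeated reads counted once, other windows, shifts, thresholds and widths, 1 strand choosing and the other measured, each orientation, like densities, high scores, calls without overlap, the richest gaps left out and each chromosome left out. No genome of this build was used, so sequence and genes at the gaps are not analysed here.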

Additional observations from a re-analysis of the deposited data

How the results depend on the processing

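No paired analysis was possible because the forms share no replicate number, and differences between the sides were taken within gaps and chromosomes without a test. Over 16 alternative settings, 99 of 144 values moved by less than 1 SD over chromosomes, or for counts by less than 1.5 times, 45 moved further and none changed sign. Counts, swings, amplitudes and the level inside cannot fall below 0, so only the differences between the sides could have changed sign. With each chromosome left out in turn, all 108 values moved by less. Each of these sets keeps most of the gaps, so large moves were hardly possible. The gap count then ran from 6227 to 6627, the score difference from 0.237 to 0.256, the first swings from 71.6% to 73.5% and from 26.4% to 27.7%, the amplitudes from 12.7% to 13.2% and from 3.45% to 3.89%, their difference from 9.05 to 9.59 points, the next-call difference from 1.05 to 1.15 centres and the level inside from 24.2 to 24.5 centres per kb. The amplitude was higher on the strong side in every setting. Below, a first swing is that of the first nucleosome.

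Counting repeated reads once gave 4689 gaps, a strong-side first swing of 65.8% and 23.02 centres per kb inside. Windows of 10 bp, with scaled thresholds, gave 3960 gaps and an amplitude difference of 7.42 points, and windows of 30 bp gave 3643 gaps, a weak-side amplitude of 5.02% and a level inside of 25.6. Thresholds of 10 or more and 1 to 2 gave 2799 gaps, a strong-side first swing of 83.9% and a level inside of 25.5. Thresholds of 6 or more and 1 to 4 gave 15246 gaps, a score difference of 0.179 and a strong-side first swing of 62.4%.

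The 4395 narrower gaps had a weak-side first swing of 21.5% and a level inside of 25.6. The 2682 wider ones had first swings of 79.2% and 46.5%, a weak-side amplitude of 6.50%, a difference of 6.80 points and a level inside of 23.1. Choice on 1 strand used lower thresholds, which also let in weak calls without a read on that strand. The numbers of gaps are therefore not comparable with that of the main rule. Choice on forward reads, with the reverse reads measured, gave 11371 gaps, a strong-side first swing of 64.2% and, doubled for 1 strand, a level inside of 22.2. The opposite choice gave 11446 gaps and a level inside of 22.3. The orientations held 3572 and 3505 gaps, and 2904 had sides of like density.

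In the 1946 gaps with both scores at or above the median of all calls, the score difference was 0.119, the first swings 79.02% and 54.8%, the weak-side amplitude 8.01%, the amplitude difference 4.72 points and the level inside 21.8. In the 1496 gaps whose flanking calls overlapped no other call, the first swings were 118% and 63.7%, the amplitudes 19.3% and 13.1%, their difference 6.20 points and the level inside 20.1. In the 692 gaps with no higher score at the strong call, chosen after seeing the data, the score difference was -0.061, as this choice fixes, the first swings were 53.1% and 55.1%, the amplitudes 8.44% and 7.64%, their difference 0.801 points and the next-call difference 0.588 centres. The cause of these changes was not tested. Depth limits single gaps, whose weak calls hold 1 to 3 reads.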
